A study of Homo sapiens with 4 samples.

Results

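The genes CLEC16A, DEXI, NUBP1, RMI2, LITAF, TXNDC11, SNN and ZC3H7A lie around CIITA on the short arm of chromosome 16, in the region that is broken when CIITA is fused to another gene. Their 8 symbols were matched to the platform annotation, and every probe set annotated to 1 of them alone was taken, which gave 13 of the 54613 probe sets of the table. No probe set that carried several gene names held one of them. RNA was read on oligonucleotide arrays of 1 colour. The cells were KM-H2, an established Hodgkin lymphoma line from a pleural effusion that carries the CIITA-BX648577 fusion. One group was 2 arrays of KM-H2 cells given a non-silencing control, and the other was 2 arrays of KM-H2 cells in which CIITA-BX648577 was knocked down by lentiviral transduction of the hairpin vector pGIPZ-sh.FLJ27352. All 4 arrays are thus of 1 cell line with the fusion, and 1 hairpin was used, so no array shows these genes on an unbroken pair of chromosomes only. An array reads RNA from both copies of a gene together. The knockdown was compared with the control to ask which transcripts differ once the fusion transcript is targeted, and the genes beside CIITA show its chromosomal surroundings in that comparison.

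CIITA encodes the protein that switches on transcription of the HLA class II genes, and in Hodgkin and related B cell lymphomas its gene is a recurrent site of breaks that join it to many partners. The genes around it serve unrelated purposes, from iron-sulphur cluster assembly and DNA repair to endosomal sorting and protein folding, so neighbourhood, not function, makes them a set. The region after CIITA that holds DEXI and CLEC16A is also known from genetic studies of autoimmune disease. In the order of protein-coding genes in the RefSeq annotation of GRCh38.p14, NUBP1 lies 2 places before CIITA. DEXI and CLEC16A lie 1 and 2 places after it, RMI2 lies 8 places after it, and LITAF, SNN, TXNDC11 and ZC3H7A follow at 10, 11, 12 and 13 places. All 8 genes were matched to that annotation by gene number. The annotated span of DEXI overlaps that of CIITA, that of SNN overlaps TXNDC11, and that of NUBP1 overlaps TVP23A. Which strand and which stretch of each gene a probe set reads was not used here, and the labels name no genome build.

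The agent that set the groups apart is shown first. The longest perfectly complementary stretches of the hairpin given in the labels were 23 bases each, 15 bases apart. Per the labels the processed RNA is directed at the second exon of BX648577. Matches of the arms to transcripts of CIITA or its neighbours were not looked for. Both arms are given 5′ to 3′.
first arm: gacagccacctcactatcaaata
second arm: tatttgatagtgaggtggctgtc

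Promoter windows of 300 bases, 250 before and 50 after an annotated start, were found in the RefSeq table of GRCh38.p14 for 6 of the 8 genes. The 4 shown belong to the gene pair that starts back to back after CIITA, DEXI on the minus strand and CLEC16A on the plus strand, and to the neighbours TXNDC11 and ZC3H7A, which each had a probe set among the lowest pair of knockdown minus control values. The other ZC3H7A probe set had the highest. The windows are DEXI at chr16:10942419-10942718 on the minus strand, CLEC16A at chr16:10944314-10944613 on the plus strand, TXNDC11 at chr16:11742808-11743107 on the minus strand and ZC3H7A at chr16:11797209-11797508 on the minus strand. Each is written 5′ to 3′ on its gene's strand, and capitals mark the motif CCAAT on either strand (ATTGG on the other strand). This motif is the core of the Y box of class II promoters, to which the factor NF-Y binds, and it also occurs in many promoters unrelated to class II.
DEXI: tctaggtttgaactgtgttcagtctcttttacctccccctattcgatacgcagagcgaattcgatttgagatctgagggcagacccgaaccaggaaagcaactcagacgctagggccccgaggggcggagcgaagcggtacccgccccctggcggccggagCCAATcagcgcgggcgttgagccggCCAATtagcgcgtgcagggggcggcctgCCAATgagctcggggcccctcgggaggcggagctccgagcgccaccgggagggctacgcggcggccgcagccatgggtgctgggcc
CLEC16A: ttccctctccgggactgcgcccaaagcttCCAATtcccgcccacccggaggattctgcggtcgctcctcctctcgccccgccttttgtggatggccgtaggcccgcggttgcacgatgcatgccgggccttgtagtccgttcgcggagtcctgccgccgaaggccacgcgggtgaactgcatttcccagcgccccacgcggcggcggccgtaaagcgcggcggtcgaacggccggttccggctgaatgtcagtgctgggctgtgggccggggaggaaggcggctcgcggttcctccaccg
TXNDC11: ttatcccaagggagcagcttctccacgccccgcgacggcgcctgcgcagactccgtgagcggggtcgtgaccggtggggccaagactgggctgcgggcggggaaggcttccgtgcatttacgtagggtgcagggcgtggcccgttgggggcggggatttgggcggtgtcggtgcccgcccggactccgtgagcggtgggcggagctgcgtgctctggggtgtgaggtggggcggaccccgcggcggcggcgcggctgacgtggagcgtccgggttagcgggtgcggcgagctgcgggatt
ZC3H7A: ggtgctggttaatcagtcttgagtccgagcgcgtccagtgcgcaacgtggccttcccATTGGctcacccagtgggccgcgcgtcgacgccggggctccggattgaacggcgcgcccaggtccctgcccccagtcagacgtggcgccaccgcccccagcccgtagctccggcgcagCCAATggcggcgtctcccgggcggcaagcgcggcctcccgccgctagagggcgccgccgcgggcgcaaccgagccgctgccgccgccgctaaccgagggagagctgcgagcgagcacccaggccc

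The motif occurred 3 times in the DEXI window, 1 time in that of CLEC16A, 2 times in that of ZC3H7A, and not in these letters of the TXNDC11 window or in the windows of NUBP1 and LITAF. Among 34943 promoter windows of the table, 34.6% held it at least once, 10.8% at least 2 times and 3.26% at least 3 times. These matches describe the sequence only. The 4 windows shown held 30, 38, 39 and 42 CG dinucleotides for DEXI, CLEC16A, TXNDC11 and ZC3H7A, against a median of 14 and an upper quartile of 28 over all windows. The windows not shown held 22 and 26 for NUBP1 and 41, 33 and 9 for LITAF.

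The deposited values are linear intensities, and array means lay between 53.3 and 54.6. Probe sets with a mean log2(intensity + 16) below the median of the table, an intensity of about 8.26, were left untested. The markers listed for Hodgkin Reed-Sternberg cells were above that level for 8 of 8 genes, with sums of intensities from 1731 to 1750 in control and from 1725 to 1798 in knockdown. These sums join opposite changes, with 1 log2 difference below 0 (FSCN1, 631 in control and 504 in knockdown) and 7 above (BATF3, 489 and 583, among them). FSCN1 alone of the 8 passed a fit described below (adjusted p = 0.0170 in the limma fit whose prior follows intensity, 0.311 in the other). With no filter its adjusted p in the limma fit whose prior follows intensity was 0.0804. Of 6 T cell markers only CD3D was above the filter (188 in control, 239 in knockdown). The summed T cell markers were 209 to 212 in control and 249 to 290 in knockdown, and the summed fibroblast markers, all 5 above the filter but with mean intensities of 9.20 to 48.7, were 140 to 154 and 107 to 108. Of 5 epithelial and 5 myeloid markers, 1 and 3 were above the filter, with sums of 33.6 to 54.0 against 31.7 to 43.2 and of 153 to 156 against 141 to 148. None of the markers was listed at 0, but the lowest reading among them was 1, for CD3E (1 control and 1 knockdown array) and LYZ (1 knockdown array). The 3 B cell markers read (CD79A, CD79B and MS4A1) summed to 52.6 to 54.6 and 48.0 to 53.3. The part of other cells in the results below was not tested. As a check of the labels, PIERCE2, the present name of FLJ27352, read 880 and 947 on the control arrays against 621 and 590 under the hairpin, so the knockdown mean was 66.3% of the control mean (adjusted p = 0.000141 in the limma fit described below whose prior follows intensity, 0.273 in the other). The brightest CIITA probe set read 59.6 and 65.1 against 60.7 and 53.6, a log2 difference of -0.10 (SE 0.11).

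No gene beside CIITA passed the test in the knockdown. Of the 13 probe sets, 10 lay above the filter on dim probe sets, at least 1 for each of the 8 genes, and none of the 10 had a limma adjusted p below 0.05 in the fit with 1 prior variance for all probe sets (the common-prior fit) or in the fit whose prior variance follows mean intensity (the intensity-trend fit). Over all 27307 tested probe sets these fits called 0.00732% and 2.16%. At an unadjusted p below 0.05 there were 2 and 3 of the 10 members, against 13.3% and 16.1% of all tested probe sets. Each difference is the knockdown mean less the control mean of log2(intensity + 16), a scale that makes changes of dim probe sets look smaller. The differences ran from -0.38 to 0.17 with a median of -0.05, 7 below and 3 above 0. Over all tested probe sets the median was 0.00 (quartiles -0.13 and 0.12). When arrays were centred on their medians, NUBP1, RMI2 and LITAF 200704_at lay just above 0. The median over all tested probe sets was then 0.0535, so these 3 still lay below it. Both knockdown arrays lay below both control arrays at 4 of the 10 and above them at 2, against 22.8% and 23.3% of all tested probe sets. With 2 arrays against 2 an exact two-sided permutation test cannot go below p = 0.333, and nothing in the labels says that the replicates are separate cultures, so the p-values measure the spread between arrays.

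**Figure D1:**
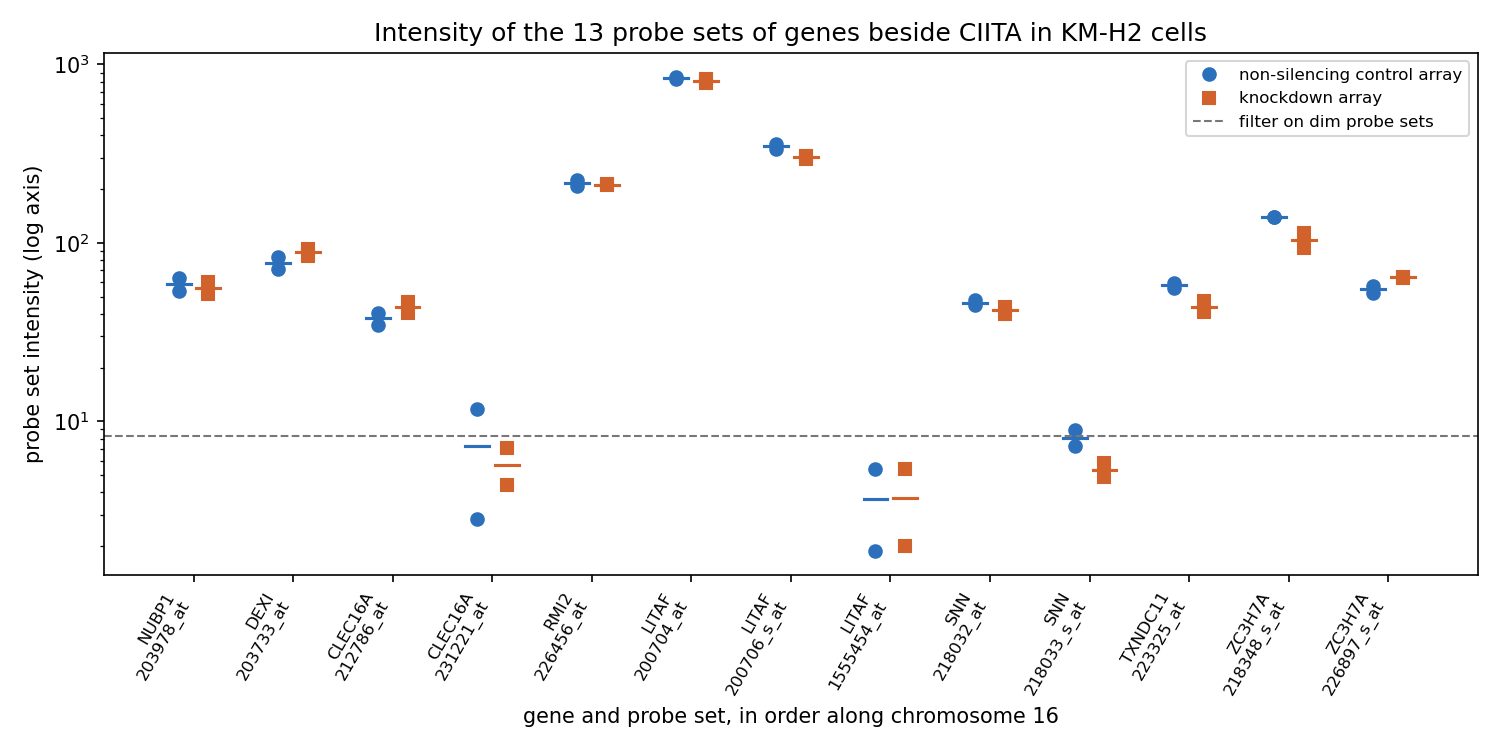
Intensity (log axis) of the 13 probe sets on the 2 control arrays (circles) and the 2 knockdown arrays (squares), in the order of the genes along chromosome 16, with short lines at the group means and a dashed line at the filter. Above the filter the groups lie close together, with the widest gaps there at TXNDC11 and at the brighter ZC3H7A probe set. The 3 probe sets under the line were not tested. Among them SNN 218033_s_at has a wider gap, with the knockdown mean at 66.2% of the control mean.

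The genes next to CIITA came first. DEXI encodes a small protein named for the induction of its transcript by dexamethasone. Its probe set 203733_at read 71.2 and 83.2 in control and 84.8 and 91.8 in knockdown. Both knockdown arrays were above both controls, but the lower knockdown array exceeded the higher control only narrowly. The difference was 0.16 (SE 0.12, 95% interval -0.11 to 0.44, adjusted p = 0.577 in the common-prior fit and 0.493 in the intensity-trend fit), and the controls differed from each other by 0.19. With single arrays left out it ran from 0.07 (without control replicate 1) to 0.26 (without control replicate 2). CLEC16A encodes an endosomal protein that works with the ubiquitin ligase RNF41 in the clearance of damaged mitochondria. Its brighter probe set 212786_at read 40.7 and 34.8 in control and 40.5 and 46.3 in knockdown, so the groups overlapped. The difference was 0.14 (SE 0.12, interval -0.13 to 0.42, adjusted p = 0.628), and it was 0.07 without control replicate 2 or without knockdown replicate 2. The other CLEC16A probe set, 231221_at, was under the filter at 11.7 and 2.82 against 4.38 and 7.05, with the lowest and the highest reading both in control. Of the CLEC16A partners listed, RNF41 differed by 0.19 (SE 0.15) and the deubiquitinase gene USP8 by 0.07 (SE 0.12), and 0 of the 2 passed either fit.

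On the other side of CIITA, NUBP1 encodes a scaffold protein on which iron-sulphur clusters are assembled in the cytosol. Its probe set 203978_at read 63.8 and 53.6 in control and 52.0 and 60.04 in knockdown. The groups overlapped, the controls spanned more than the group means differed, and the difference was -0.05 (SE 0.12, interval -0.35 to 0.24, adjusted p = 0.892). Of 7 listed genes of cytosolic iron-sulphur assembly, 6 had a probe set and 5 were tested, 3 above and 2 below 0 with a median of 0.01, and 0 passed either fit. In the common-prior fit the largest moderated statistics among them were those of NDOR1 and CIAPIN1, which form the electron transfer chain of the pathway, and they had opposite signs. NDOR1 stood at -0.24 (SE 0.13, adjusted p = 0.445), with both knockdown arrays lower, and CIAPIN1 at 0.18 (SE 0.11, adjusted p = 0.492), with both higher. In the intensity-trend fit CIAO2B, a subunit of the targeting complex, came first at 0.17 (SE 0.07, adjusted p = 0.191), also with both knockdown arrays higher. Of all tested probe sets, 22.8% had both knockdown arrays lower and 23.3% had both higher. TVP23A, whose span overlaps that of NUBP1, was under the filter at 5.13 and 3.60 in control and 1.73 and 2.04 in knockdown.

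RMI2 encodes a subunit of the complex of BLM, TOP3A and RMI1 that dissolves joined DNA molecules during recombination. Its single probe set 226456_at read 209 and 225 in control and 210 and 213 in knockdown. The 2 knockdown arrays lay inside the control range, and the difference was -0.04 (SE 0.11, interval -0.29 to 0.22, adjusted p = 0.916). In the intensity-trend fit the interval was -0.21 to 0.14. All 3 partners were tested and 0 passed either fit. BLM, the helicase of the complex, stood at -0.24 (SE 0.12, adjusted p = 0.443) and TOP3A, its topoisomerase, at -0.25 (SE 0.11, adjusted p = 0.386). Both knockdown arrays lay below both controls in each, as they did at 22.8% of all tested probe sets. RMI1 stood at 0.00 (SE 0.14).

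LITAF encodes a membrane protein of late endosomes and lysosomes, also described as a factor in the response to bacterial lipopolysaccharide. Its brightest probe set 200704_at read 853 and 824 in control and 827 and 786 in knockdown, so 1 knockdown array lay between the controls. The difference there was -0.05 (SE 0.11, interval -0.31 to 0.20, adjusted p = 0.864). The second, 200706_s_at, read 336 and 357 in control and 306 and 296 in knockdown, with no overlap. Here the difference was -0.19 (SE 0.11, interval -0.45 to 0.06, adjusted p = 0.477). The intensity-trend fit gave this probe set an interval of -0.35 to -0.04 and an adjusted p of 0.196. The suffix of 200706_s_at marks a probe set that can match several transcripts. The third, 1555454_at, was dim on every array, at 1.87 and 5.43 against 5.43 and 2.01. The 2 tested LITAF probe sets did not differ from each other beyond their error (difference of differences 0.14, SE 0.13, adjusted p = 0.690). Among 3 listed partners of LITAF in sorting and ubiquitination, NEDD4 stood at -0.13 (SE 0.11). TSG101, a subunit of the endosomal sorting complex, stood at 178 ± 3.86 in control and 229 ± 5.93 in knockdown (SD, n = 2), a difference of 0.34 (SE 0.11). It passed the intensity-trend fit (adjusted p = 0.0419) and not the common-prior fit (adjusted p = 0.300), and it was the only one of the 3 to pass either. The intensity-trend fit called 2.16% of all tested probe sets. With no filter on dim probe sets, TSG101 did not pass that fit (adjusted p = 0.123).

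SNN, TXNDC11 and ZC3H7A follow LITAF, and the lowest pair of differences among the 10 tested probe sets came from TXNDC11 and from 1 probe set of ZC3H7A. SNN encodes stannin, a small mitochondrial membrane protein linked to the toxicity of organotin compounds. Its brighter probe set 218032_at read 48.0 and 44.6 in control and 43.7 and 39.9 in knockdown, with the groups apart by a narrow margin. The difference was -0.11 (SE 0.11, interval -0.37 to 0.15, adjusted p = 0.706). The other, 218033_s_at, read 8.89 and 7.24 against 4.86 and 5.82 and was under the filter, also with both knockdown arrays below both controls. TXNDC11 encodes a thioredoxin-domain protein of the endoplasmic reticulum that binds the DUOX oxidases. Its probe set 223325_at read 59.9 and 55.9 in control and 47.1 and 40.7 in knockdown, so all readings of the knockdown were lower. The knockdown mean was 75.8% of the control mean. The difference was -0.30 (SE 0.11), with an interval of -0.57 to -0.04 before adjustment. After adjustment p was 0.335 with the common prior and 0.201 with the intensity trend. Of all tested probe sets, 6.81% lay at least as far below 0.

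ZC3H7A encodes a CCCH zinc finger protein that binds RNA, and its 2 probe sets stood on opposite sides of 0. At 218348_s_at the controls read 139 and 139 and the knockdowns 114 and 93.1. The knockdown arrays were both lower, yet they differed from each other by 0.25 on the log2 scale while the controls differed by 0.00. The knockdown mean was 74.6% of the control mean and the difference -0.38 (SE 0.12, interval -0.67 to -0.09 before adjustment, adjusted p = 0.307 in the common-prior fit). In the intensity-trend fit the adjusted p was 0.0641. This was the smallest adjusted p of the 8 genes in either fit, and 3.45% of all tested probe sets lay at least as far below 0. At 226897_s_at the controls read 57.3 and 52.5 and the knockdowns 64.7 and 63.2, again without overlap but with the knockdown higher. There the difference was 0.17 (SE 0.11, interval -0.08 to 0.43, adjusted p = 0.517). The gap between the 2 probe sets was tested in 1 limma fit of such gaps over 5774 genes with at least 2 tested probe sets, of which 0.0173% passed in either form of the fit. For ZC3H7A the gap was -0.55 (SE 0.14, adjusted p = 0.334), so the probe sets were not shown to differ. With the mean of the 2 probe sets the difference of ZC3H7A was -0.10. Without knockdown replicate 1 the 218348_s_at difference was -0.51 and was called with the intensity trend (adjusted p = 0.0194), and without knockdown replicate 2 it was -0.25 (adjusted p = 0.576). Both probe sets carry the suffix for probes that can match several transcripts.

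**Figure D2:**
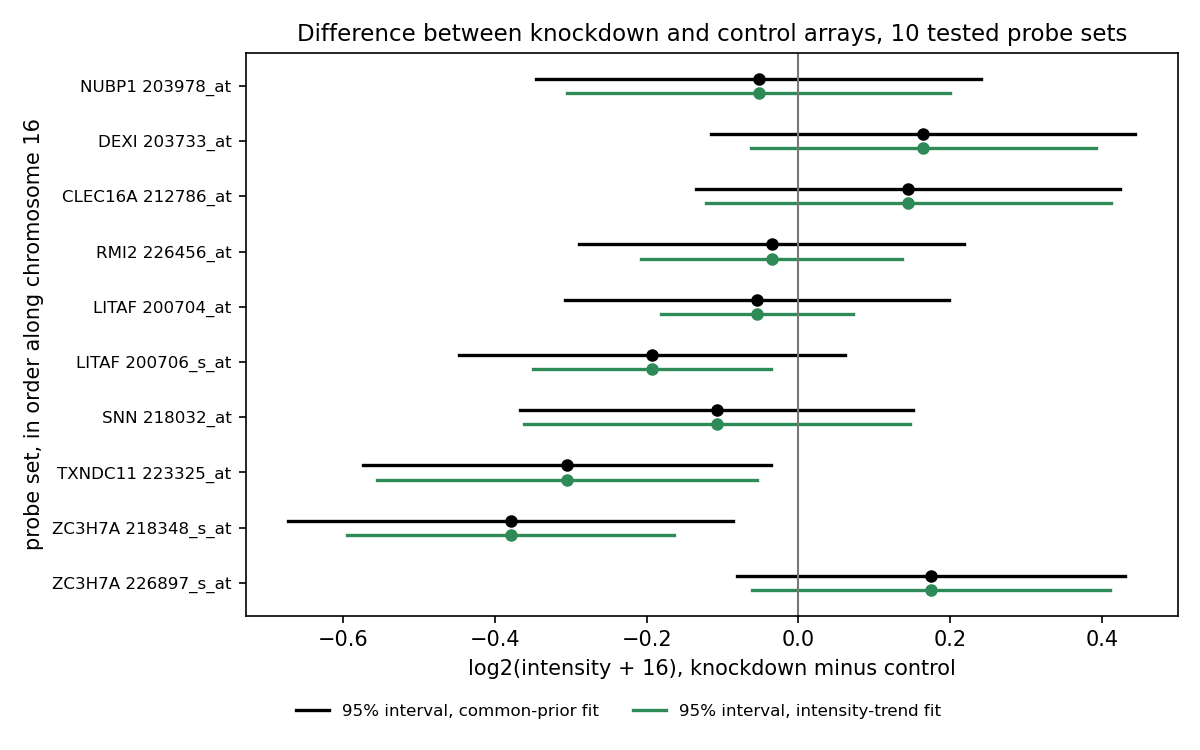
Differences between knockdown and control, on the log2(intensity + 16) scale, for the 10 tested probe sets in order along chromosome 16, with unadjusted 95% intervals from the common-prior fit (black) and the intensity-trend fit (green). TXNDC11 and ZC3H7A 218348_s_at lie wholly below 0 in both fits and LITAF 200706_s_at in the intensity-trend fit only, while ZC3H7A 226897_s_at lies to the right of 0.

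**Figure D3:**
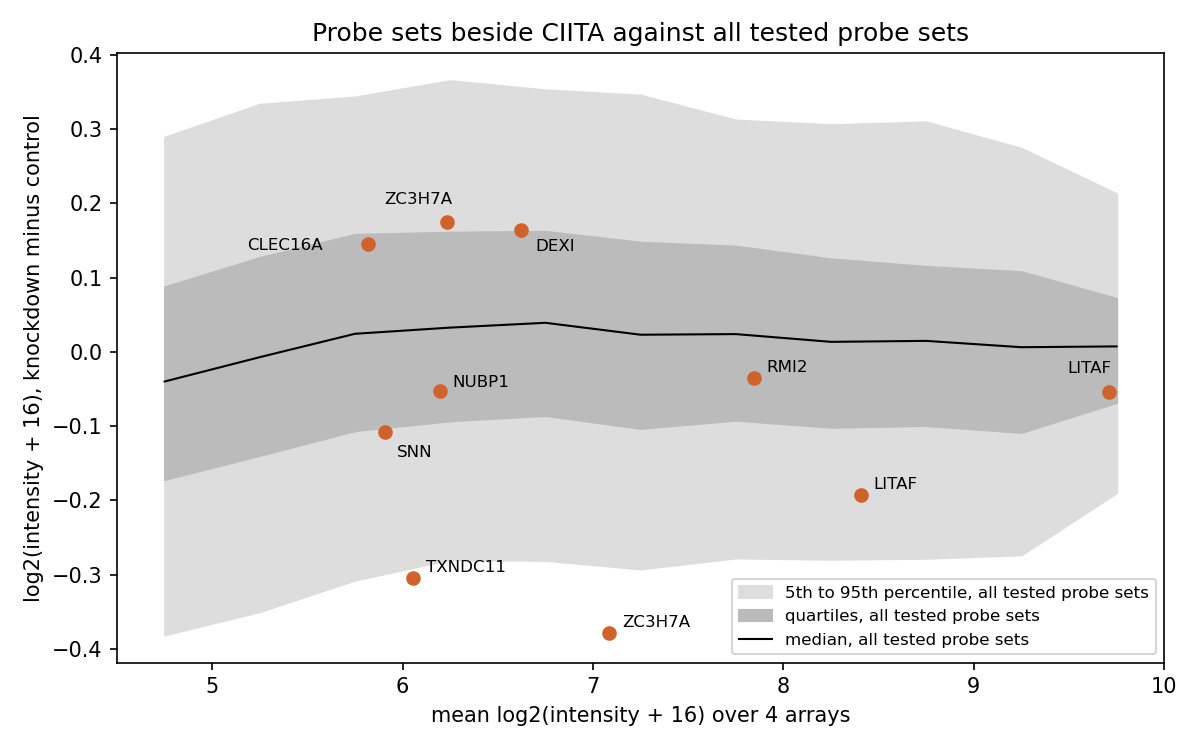
Difference between knockdown and control against mean log2(intensity + 16) for the 10 tested probe sets (points), over bands that hold the quartiles and the 5th to 95th percentiles of all 27307 tested probe sets in steps of intensity. The points for TXNDC11 and for ZC3H7A at -0.38 lie at the lower edge of the outer band or beyond it, and the other 8 lie within it.

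Other genes of 16p13 were set beside these from a list. Of 31 genes, 27 had a probe set annotated to them alone, 18 had a brightest probe set above the filter, and 0 of the 18 passed either fit. Their median difference was -0.01, with 10 below and 8 above 0. The differences ran from -0.30 (TEKT5) to 0.38 (CPPED1). The arrays of the groups did not overlap at 5 lower and 6 higher genes of the 18, against 22.8% and 23.3% of all tested probe sets. SOCS1, an inhibitor of cytokine signalling that lies between CLEC16A and RMI2 in this order, read 117 and 137 in control and 128 and 136 in knockdown, with overlap between the groups. Its difference was 0.05 (SE 0.12, adjusted p = 0.880). TNFRSF17, the plasma cell receptor BCMA, was under the filter at 6.21 and 6.62 against 3.15 and 5.17. RSL1D1, the listed gene that follows ZC3H7A in the order, stood at 0.09 (SE 0.11), chosen here for its place after its value was seen.

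**Figure D4:**
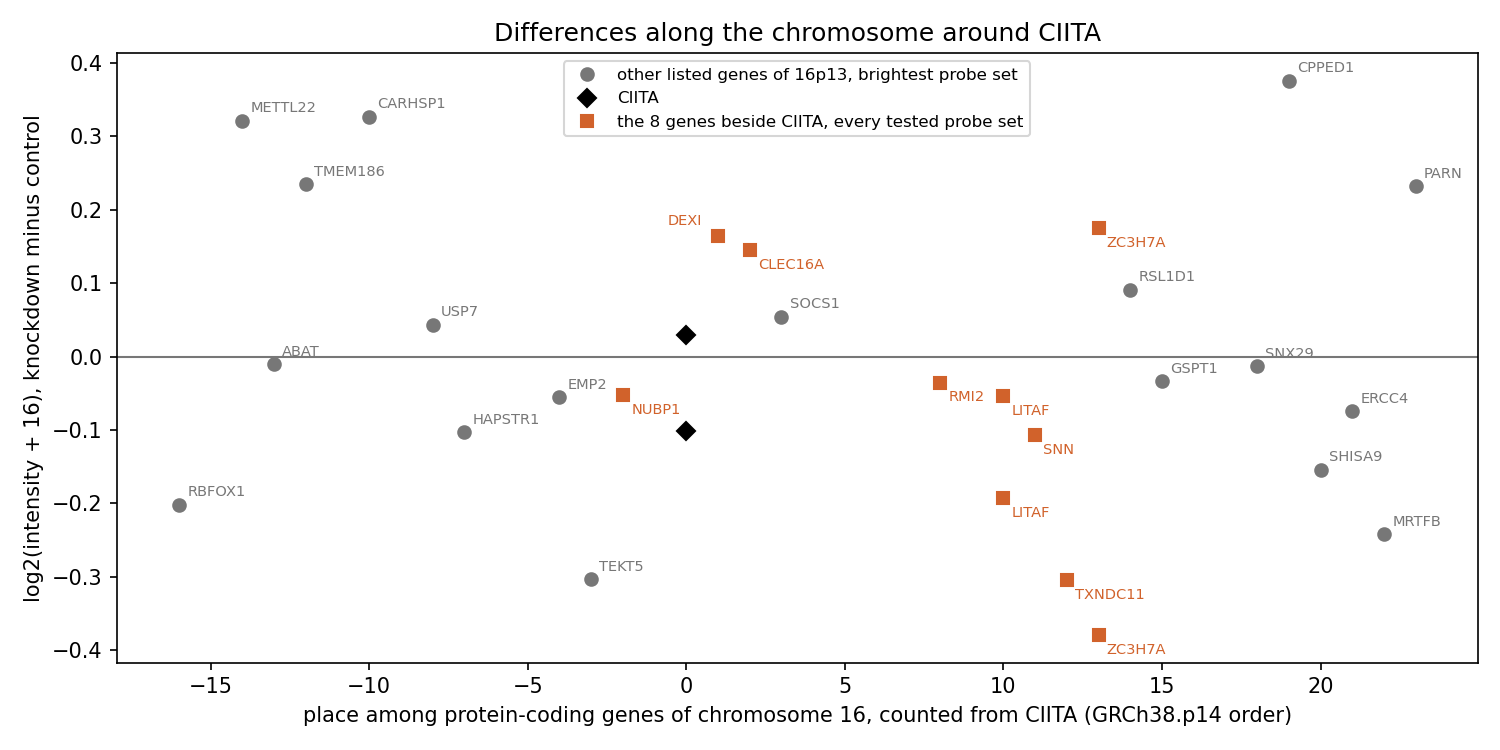
Difference between knockdown and control, on the log2(intensity + 16) scale, by place among protein-coding genes of chromosome 16 counted from CIITA, for the tested probe sets of the 8 genes (squares), of CIITA (diamonds) and of the 18 other listed genes (circles). DEXI and CLEC16A lie above 0 and the squares at places 8 to 13 lie below 0 except 1 of ZC3H7A. With median centring RMI2 and LITAF 200704_at also lie just above 0, but below the centred median of all tested probe sets, 0.0535. None of the squares or circles passed either fit.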

How the data were processed

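RNA of 4 KM-H2 samples was read on 4 arrays. The deposited values are linear intensities per probe set; per the labels, biotinylated cRNA was made by the Affymetrix method for 1 cycle, and the authors' steps from scan to intensity were not given in the sources used here. Probe sets were named from the platform annotation (1 gene for 41091, several for 1801, none for 11721). Intensities were taken as log2(intensity + 16). Every probe set with a mean at or above the table's median, 27307 of 54613, were fitted by lmFit and eBayes of limma 3.58.1 (R 4.3.3), with a common prior or one following mean intensity, and Benjamini-Hochberg adjustment over all of them at 0.05. All 8 genes, CIITA, PIERCE2 and the listed neighbours and partners are named; lists use each gene's brightest probe set. Members and lists were chosen with earlier results of these data known, and the test between 2 probe sets of a gene was added after seeing the values. The scripts were tested on simulated data. The number of arrays limits precision. Same-numbered replicates did not deviate together (r = -0.01 over tested probe sets), so the numbers were not taken to pair the arrays. The listed genes (PMM2, NPIPB2, BFAR, PLA2G10 and NUBP2) were not analysed here. Alternatives were other filters, pseudocounts, normalizations, units, thresholds, robust hyperparameters, a replicate block and leaving out each array.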

Additional observations from a re-analysis of the deposited data

How the results depend on the processing

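Only 2 arrays per group limit every value. In the common-prior fit no member passed under any alternative except a pseudocount of 64, where 1 did (ZC3H7A 218348_s_at, adjusted p = 0.0469). In the intensity-trend fit that probe set was the 1 member to pass with the upper quartile filter (adjusted p = 0.0311), a threshold of 0.10 and the replicate number as a block (1 member; adjusted p = 0.00978), and the count was 0 to 1 with single arrays left out. Over these alternatives its intensity-trend adjusted p ran from 0.00978 to 0.576.

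The common-prior count over all probe sets was 2, against 0 with no filter, 0 with a pseudocount of 1, 0 at a threshold of 0.01, 1 with probe sets averaged per gene, 62 with the upper quartile filter, 663 with a pseudocount of 64, 591 with the intensity-trend prior and 0 (without control replicate 2 or knockdown replicate 2) to 4 (without knockdown replicate 1) with single arrays left out. The intensity-trend count was 591, against 2 with the common prior, 23 with probe sets averaged per gene, 101 with no filter, 138 and 1127 at thresholds of 0.01 and 0.10, 387 with the brightest probe set per gene, 952 with the upper quartile filter, 1462 with the replicate block and 274 (without knockdown replicate 2; 327 without control replicate 2) to 630 (without control replicate 1) with single arrays left out. Its split of 353 higher and 238 lower became 738 and 135 with median centring, and turned to 234 higher and 361 lower without knockdown replicate 1. The members' median of -0.05 was -0.11 without control replicate 2 and 0.0038 with median centring. Centring also moved the median over all tested probe sets, from 0.00 to 0.0535. Median centring turned the sign of LITAF 200704_at (0.0029), NUBP1 (0.0047) and RMI2 (0.0217), and with single arrays left out NUBP1 ran from -0.151 to 0.0461 and RMI2 from -0.0823 to 0.0114. The same omissions gave 0.07 to 0.26 for DEXI, 0.07 to 0.22 for CLEC16A 212786_at and -0.09 to -0.02 for LITAF 200704_at. The causes were not tested.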
